A study of Homo sapiens and Homo sapiens
Mus musculus and Mus musculus with 200 samples.

Results

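TWIST1 binding in human cranial neural crest cells (hCNCC) that carry a degradable tag on TWIST1 (TWIST1FV) was compared with binding in untagged cells (WT), before any TWIST1 was degraded. The comparison rests on 4 of the 200 samples in the series: TWIST1 chromatin immunoprecipitation followed by sequencing (ChIP-seq) in TWIST1FV and in WT, with 2 replicates per line, chosen by their titles. All 4 came from cells differentiated from H9, a human embryonic stem cell line, at 0 h of dTAGV-1, the compound (500 nM at later times) that removes the tagged protein. Per the labels, both TWIST1FV replicates came from a single edited clone, c64, and they name no clone for WT, so the tag and the clone cannot be told apart. Both lines were precipitated with the same TWIST1 antibody (Abcam ab50887), and mouse O9-1 neural crest chromatin was added to every library. The labels do not say whether replicates were separate differentiations, so the spread between them may be technical. Each sample is a list of peaks; the read depth behind the lists is unknown, and a site missing from a list was not called there, which is not the same as unbound.

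TWIST1 is a basic helix-loop-helix transcription factor that pairs with E-proteins such as TCF3, TCF4 and TCF12 and binds E-boxes, short sequences of the form CANNTG. In the cranial neural crest, which gives rise to much of the facial skeleton, it binds together with homeodomain factors such as ALX4, PRRX1 and MSX1 at a composite sequence in which an E-box and a homeodomain site lie a fixed distance apart. A pair of E-boxes at a fixed spacing is another known TWIST1 sequence. AP2a, encoded by TFAP2A, is a neural crest transcription factor that occupies many of the same regulatory elements. Loss of a TWIST1 copy causes a craniosynostosis syndrome, in which skull sutures fuse early.

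Among WT sites called in all 5 WT lists (0 h and 3 h in 2 replicates, and a separate hCNCC list), the 10 strongest absent from TWIST1FV were singled out. An E-box 6 bp from an ATTA core was in 5 of these 10, beside 9.61% of all missing and 10.49% of all kept sites. This pair was chosen after its spacing was seen in these data, so the count is a description. At WT fold enrichments of 19.2 to 27.4 the pair was in 25% of 76 missing and 10.4% of 3646 kept sites. Some of the 10 sites are among these 76. The gap was narrower on either side. At 14.5 to 19.2 the pair was in 15.5% of 348 missing and 9.34% of 2870 kept sites. At 27.4 to 44.3 it was in 16.7% of 6 and 13.6% of 4144. A site with the pair, from the 10, is shown first as reference sequence (hg38, plus strand, 61 bp around the summit in WT replicate 1). Capitals mark E-boxes (CAGATG with its reverse complement CATCTG, and the palindromes CAGCTG and also CATATG), homeodomain sites (the palindrome TAATTA, and TAATTG with its reverse complement CAATTA) and the ATTA core, on either strand, that lies 6 bp from an E-box.
PRRX1 site, chr1:170694783-170694843: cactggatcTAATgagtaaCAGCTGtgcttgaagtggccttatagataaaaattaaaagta
Beside it, 2 of the strongest sites called in both TWIST1FV lists are shown in the same way; the RNF175 site also has the pair, outside the printed bases but within 100 bp of its summit.
SLC30A10 site, chr1:219792481-219792541: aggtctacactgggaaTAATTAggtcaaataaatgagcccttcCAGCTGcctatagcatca
RNF175 site, chr4:153731390-153731450: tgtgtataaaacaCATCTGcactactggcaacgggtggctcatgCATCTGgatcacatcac
In the missing PRRX1 site the core and the E-box lie 6 bp apart, whereas the shown part of the SLC30A10 site has a homeodomain site and an E-box at a wider spacing.

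The first question was how the lists of the lines differed in size and content. WT had 59282 and 49107 peaks and TWIST1FV had 33479 and 25034, so both tagged lists were shorter than both WT lists (difference in means -24938, exact two-sided permutation test p = 0.333, the smallest value that 2 against 2 allows). Peaks of both AP2a lists (antibodies from Novus Bio and Cell Signaling, in unedited hCNCC) overlapped 20.8% and 23.2% of the TWIST1FV peaks and 16.6% and 18.3% of the WT peaks. The share was higher in both tagged lists, by 4.60 percentage points (22.02% ± 1.69 against 17.4% ± 1.20, SD, n = 2). Promoters, with a summit within 1000 bp of a GENCODE start site, made up 15.7% and 14.5% of the TWIST1FV peaks against 17.2% and 17.0% in WT. The composite motif, an E-box and a homeodomain site with 4 bp between them within 100 bp of the summit, was found in 2.46% and 2.68% of TWIST1FV peaks and 2.46% and 2.51% of WT peaks, groups that overlap. Exact two-sided permutation tests gave p = 0.333 for AP2a and for promoters and 1 for the composite motif (0.5, 0.5 and 1 adjusted over the 3 tests), so none could pass 0.05.

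**Figure D1:**
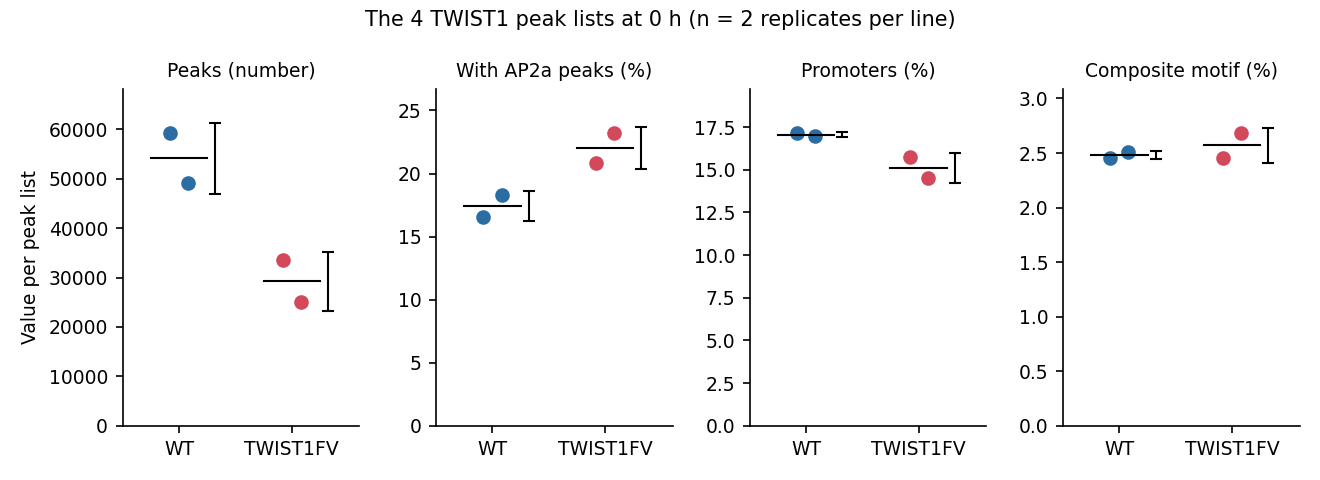
Number of peaks and percent of peaks with both AP2a lists, at promoters and with the composite motif (vertical axes) in WT and TWIST1FV at 0 h. Points are the 2 replicates, lines the means and bars the SD; TWIST1FV has 33479 and 25034 peaks against 59282 and 49107, and the composite motif shares of the lines overlap.

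Of the 42318 WT sites, taken as replicate 1 peaks that overlapped a replicate 2 peak, 21045 (49.7%) were called in both TWIST1FV lists and are termed kept. A further 9380 (22.2%) were in 1 TWIST1FV list, and 11893 (28.1%, Wilson 95% interval 27.7 to 28.5) were in neither and are termed missing. Counted over each WT replicate's whole list, the missing share was 44.5% and 36.1% (40.3% ± 5.98, SD, n = 2). The share changed strongly when the lists were cut: with every list held to its 25034 strongest peaks, 7.94% of WT sites were missing. This cut also limits the WT sites to stronger ones, and its part in the drop was not tested. Of the 21804 peaks shared by the TWIST1FV replicates, 97.4% were in both of the longer WT lists.

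Missing sites were the weak end of the WT list. The authors' fold enrichment in WT replicate 1 had a median of 6.55 at missing sites (quartiles 4.94 and 8.76) and 22.2 at kept sites (13.1 and 38.9), with sites found in 1 list between them at 8.89. Split into 10 equal groups by that value, the missing share fell from 68.0% in the weakest group to 30.2% in group 5 and 1.80% in group 8, and 0 of the 4232 strongest sites were missing. The strongest missing site had a fold enrichment of 32.7, against 270.5 at the strongest kept site. Most missing sites recurred in other untagged cells: 75.1% and 70.5% were in the WT lists taken at 3 h and 73.2% in a separate hCNCC list with the same antibody, against 98.6% to 99.2% of kept sites. A total of 5672 missing sites (47.7%) were in all 5 WT lists.

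**Figure D2:**
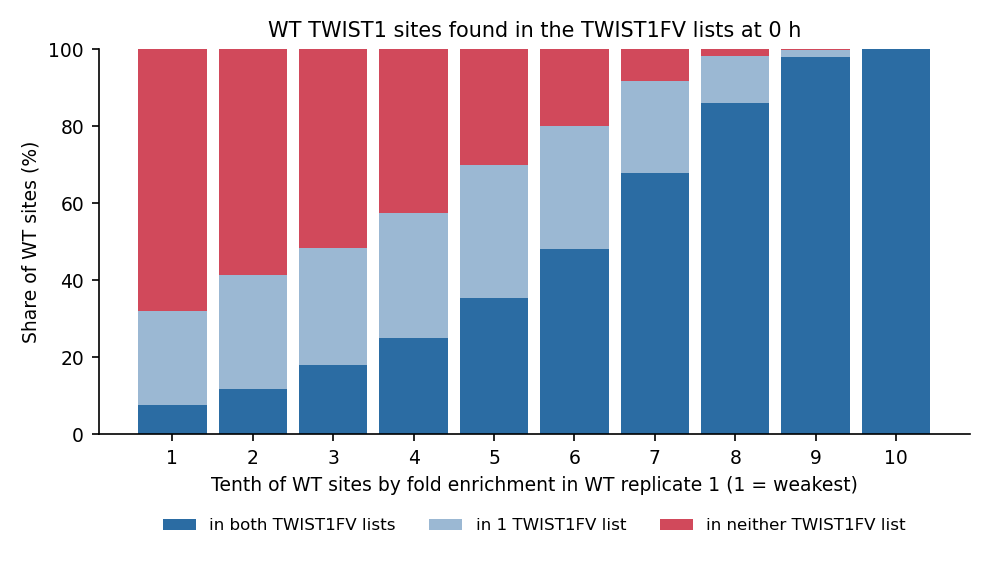
Percent of WT sites (vertical axis) in both, 1 or neither of the TWIST1FV lists, in 10 equal groups by fold enrichment in WT replicate 1 (horizontal axis, weakest at left). The missing share falls from 68.0% in the weakest group to 0 in the strongest.

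To set list length aside, the WT lists at 3 h were cut to the lengths of the 2 TWIST1FV lists by -log10 p and the same WT sites were classified against them. By this measure 24.5% of the WT sites were missing from WT at 3 h, so the totals are close. They differed in where the missing sites lay. Among 5 equal groups by WT fold enrichment, the middle group 3 (9.22 to 14.5) had 25.1% missing from TWIST1FV and 8.83% missing from the shortened WT lists. In group 4 (14.5 to 27.4) the shares were 5.01% and 0.165%, whereas in the weakest group they were 63.3% and 73.4%. When each list was held to 25034 peaks, 87.4% and 87.5% of the peaks of each WT replicate were in the other. The same measure gave 76.9% to 80.9% for WT peaks in a TWIST1FV list, 78.4% to 82.0% for TWIST1FV peaks in a WT list, and 79.4% and 80.0% between the TWIST1FV replicates themselves. WT and TWIST1FV thus matched about as often as the TWIST1FV replicates did. Lists from cells labelled ALX1FV ALX4-, from 2 other edited clones and with no spike-in, held 71.4% to 72.8% of the WT peaks. Cut to the lengths of the TWIST1FV lists, the ALX1FV ALX4- lists lacked 35.9% of WT sites in group 3 and 15.3% in group 4. Both shares were above those for TWIST1FV.

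AP2a-bound sites were missing less often than other TWIST1 sites of like WT enrichment. Over all sites 25.5% of kept and 10.7% of missing sites overlapped both AP2a lists (intervals 24.9 to 26.1 and 10.1 to 11.3), a difference of -14.8 percentage points. The 2 WT replicates taken separately gave -14.9 and -13.2. In group 3 the values were 21.3% of kept and 3.15% of missing sites, and in group 4 18.7% and 1.65%. Read the other way, 6.52% of the AP2a-bound sites in group 3 were missing against 27.7% of the sites without AP2a, and in group 2 the values were 21.5% and 50.9%. Against the shortened WT lists at 3 h, the same split in group 3 gave 6.04% and 9.21%, and in group 2 41.2% and 39.9%. In groups 2 and 3 the gap between the AP2a classes was thus wide against TWIST1FV and narrow against WT. In group 1, 52.4% of AP2a-bound and 66.3% of other sites were missing from TWIST1FV, and 78.5% and 72.0% from the shortened WT lists. A gap was also seen against ALX1FV ALX4- lists cut to the same lengths, where 19.6% of kept and 4.41% of missing sites in group 3 were AP2a-bound. AP2a was not profiled in TWIST1FV, so these overlaps describe the sites as they are in unedited cells. Kept sites had a median width of 790 bp and missing sites 434 bp. With 50% reciprocal overlap in place of 1 bp, the difference of -14.8 percentage points over all sites was -7.39. The part of site width in the AP2a difference was not tested.

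Base composition moved with the same split. The median GC content of the 201 bp around the summit was 46.8% at kept and 41.3% at missing sites in group 3, and 44.8% and 43.3% for the shortened WT lists. Within 19 cells of matched enrichment and GC content, each with at least 20 sites of both classes, AP2a overlap was lower at missing sites in all 19, by 3.50 to 23.7 percentage points and 9.83 on average. The AP2 sequence GCCNNNGGC, searched on both strands, was in 11.9% of kept and 4.28% of missing sites in group 3, against 4.57% of windows 1000 bp away from the summits. Accessible chromatin differed too, since 98.4% of kept and 78.6% of missing sites overlapped an ATAC-seq peak of the count tables. The shortened WT lists gave a like split, 97.3% and 81.3%. In group 3 the shares were 96.7% and 82.4% for TWIST1FV, and 94.8% and 81.7% for the shortened WT lists. The part of GC content or accessibility in the AP2a difference beyond the matched cells was not tested.

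**Figure D3:**
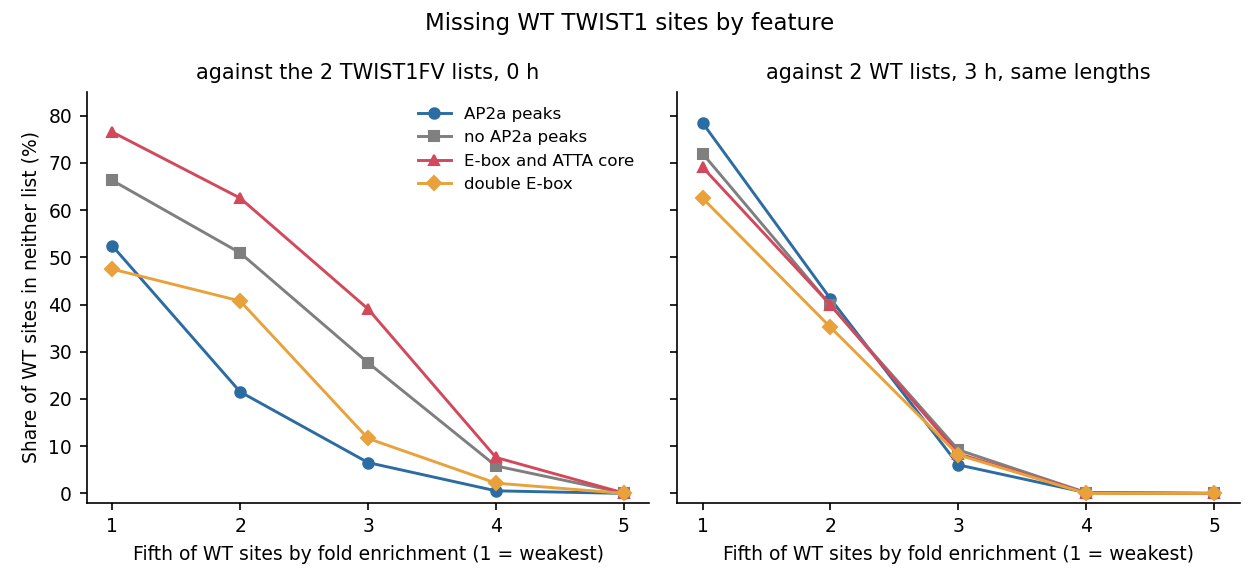
Percent of WT sites in neither list (vertical axes) in 5 equal groups by WT fold enrichment (horizontal axes, weakest at left), for TWIST1FV at left and for WT lists at 3 h cut to the same lengths at right, by AP2a overlap and E-box pairing. At left the lines separate, with 6.52% of AP2a-bound and 39.1% of E-box and ATTA sites missing in group 3. At right they lie closer together, though in group 1 they run from 62.5% (double E-box) to 78.5% (AP2a-bound).

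TWIST1 sequence classes divided along the same line. Pooled over all enrichments, the composite motif was in 3.00% of kept and 2.58% of missing sites, a difference of -0.42 percentage points that changed sign when sites of like enrichment were compared. The mean difference was 1.91 over groups 1 to 4 and 1.32 with GC content matched as well; group 5, with 6 missing sites of which 1 had the motif, raised it to 3.96. In group 3 it was in 1.67% of kept and 4.38% of missing sites. A looser form of the motif, an E-box with an ATTA core 6 bp away, on either strand (chosen after the spacing was seen in these sites), gave larger numbers: it was in 9.83% of WT sites and 0.266% of flanking windows. In group 3, 39.1% of the 822 sites with this pair were missing from TWIST1FV, and in group 2 62.5% of 654. The shortened WT lists lacked 8.39% and 39.9% of these same sites. In the lowest of 5 equal groups by GC content, TWIST1FV lacked 37.1% of sites in enrichment group 3 and 63.4% in group 2. The part of GC content in the share missing with this pair was not tested. For ALX1FV ALX4- lists of equal length, the pair was in 10.503% of kept and 8.65% of missing sites in group 3, where TWIST1FV had 6.11% and 15.1%. The order varied among the groups for ALX1FV ALX4-, with 4.06% and 5.43% in group 1, 7.29% and 7.30% in group 2 and 11.7% and 10.52% in group 4. The difference between the edited lines was not tested.

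The double E-box, 2 E-boxes with 5 bp between them, went the other way. It was in 1.33% of kept and 0.446% of missing sites (intervals 1.18 to 1.49 and 0.341 to 0.582). The shortened WT lists gave a like split over all sites, 1.13% and 0.492%, but 0.976% and 0.937% in group 3. For ALX1FV ALX4- lists of equal length the shares were 1.69% and 0.161%, and 2.16% and 0.197% in group 3. The gap was thus not particular to TWIST1FV, and the difference between the edited lines was not tested. In group 3, 11.6% of the 86 sites with the double E-box were missing from TWIST1FV and 8.14% from the shortened WT lists. Sites with an E-box but none of these pairs lay between, and differed by the central bases: 17.6% of those with CAGCTG, 21.9% with CAGATG and 26.0% with CATATG were missing in group 3. A site with several of these E-boxes counts in each. Over 5 equal groups by GC content, the missing share in enrichment group 3 ran from 37.1% in the lowest to 10.6% in the highest. The part of GC content in the E-box order was not tested. With the E-box and ATTA pair, AP2a overlap was rare but those sites were retained: 95.7% of the 349 were kept, against 49.2% of the 3811 without AP2a. The AP2a-bound ones were also the more enriched in WT, with a median fold of 54.3 against 14.7.

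By gene position, introns held 49.3% of missing and 51.1% of kept sites, intergenic sequence 29.5% and 32.3%, and exons 3.204% and 3.29%. Promoters were 18.0% of missing and 13.4% of kept sites, a difference of 4.61 percentage points. The median WT fold enrichment was 8.01 at promoter sites and 12.3 at intergenic sites. Within groups of like enrichment it turned to -6.91: promoters were 27.05% of missing and 25.1% of kept sites in the weakest group, but 8.29% and 16.3% in group 3 and 3.54% and 11.8% in group 4. With GC content matched as well the mean difference was 0.084, and missing sites had the lower promoter share in 13 of 19 cells. The missing share ran from 24.0% of sites on chromosome 22 to 31.2% on chromosome X, a narrow range.

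The 10 strongest missing sites that were in all 5 WT lists had WT fold enrichments of 25.3 to 32.7 in replicate 1 and 8.79 to 27.9 in replicate 2. None overlapped the AP2a lists, 7 overlapped an ATAC-seq peak, and 5 held the E-box and ATTA pair within 100 bp of the summit. That pair was chosen after its spacing was seen in these data, so its count is a description. The first, chr18:22566671-22567387, is intergenic and 149020 bp from the nearest protein-coding start site, that of CTAGE1. Its fold enrichment was 32.7 and 14.8 in WT at 0 h and 11.8 and 21.5 in WT at 3 h, and it was called in neither TWIST1FV nor ALX1FV ALX4- list. A site at chr14:79976126-79976842, 234806 bp from DIO2, which encodes an enzyme that activates thyroid hormone, had WT fold enrichments of 30.2 and 27.9 before treatment, with 26.9 and 24.7 in the 3 h lists. It was likewise in no ALX1FV ALX4- list. A site in an intron of ADAM12, a metalloprotease gene, had 29.3 and 16.7 (chr10:126260936-126261707). An intron of PRRX1, the gene of a homeodomain factor that binds with TWIST1, held one at chr1:170694250-170695160 with 25.3 and 17.1. Unlike the CTAGE1 and DIO2 sites, the PRRX1 site was in both ALX1FV ALX4- lists. Others were near ZNF707, TMOD3 and CECR2 and in an intron of PTPRD. Fold enrichment was higher in replicate 1 than in replicate 2 for all 10, which were ranked by replicate 1.

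**Figure D4:**
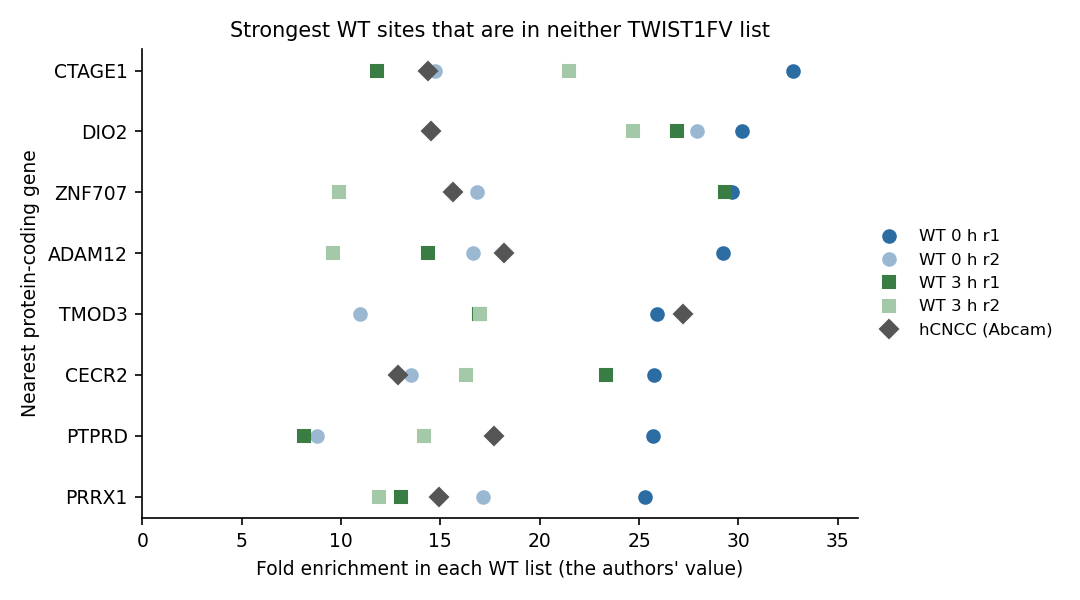
Fold enrichment (horizontal axis, the authors' value in each list) in 5 WT lists. The sites are among the 10 strongest missing ones found in all 5 lists, named by the nearest protein-coding gene (vertical axis). Replicate 1 at 0 h, which ranked the sites, lies between 25.3 and 32.7; none of the sites was called in TWIST1FV.

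The 5 strongest kept sites had WT fold enrichments of 238.1 to 270.5 in replicate 1. They included sites in introns of SLC30A10, THADA and RNF175 and a site within TMEM105 near SLC38A10. Another was at a GENCODE start site, 11365 bp from the nearest protein-coding one, that of PXDN. Of the 5 sites, 4 overlapped both AP2a lists. At the SLC30A10 site (chr1:219791724-219793211) the authors' values were 270.5 and 163.4 in WT and 127.9 and 95.2 in TWIST1FV; each value belongs to its own list and depends on that library's background. Only 8 of the 21804 TWIST1FV sites were in none of the 5 WT lists. The 5 strongest of them, near ASIC2, GZMA, ELAVL2, WNT7B and SVOPL, had TWIST1FV fold enrichments of 5.47 to 7.195 in replicate 1 and 3.12 to 6.17 in replicate 2, far below the named kept sites in the same lists.

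Neural crest regulators kept most of their sites. Assigning each WT site to the nearest protein-coding start site, 376 sites lay by the 23 listed crest transcription factor genes: 230 kept, 76 in 1 list and 70 missing (18.6%, interval 15.0 to 22.9), beside 28.1% of all sites. The median WT fold enrichment by these genes was 14.6, against 11.4 at all sites. SOX9, a crest and cartilage regulator, had 27 of 42 sites kept and 6 missing, ETS1 37 of 47 kept and 3 missing, and ZEB1, a repressor of epithelial genes, 2 of 9 kept and 5 missing. PAX7, an early crest marker, lost none of its 11. The strongest missing site of the list, chr4:173702457-173703115, lay 172540 bp from HAND2, a bHLH relative of TWIST1, with fold enrichments of 21.6 and 17.1. Others were 245340 bp from NR2F2, an orphan nuclear receptor gene (18.3 and 10.4), 451772 bp from ZEB2 (17.0 and 5.82) and 69733 bp from FOXD3, a crest specifier (15.3 and 10.3). TFAP2A itself had 14 of 25 sites kept and 5 missing, the strongest at its promoter (10.7 and 5.50).

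Genes of TWIST1's partners and relatives had 213 sites: 126 kept, 36 in 1 list and 51 missing (23.9%, interval 18.7 to 30.1). TWIST1 itself had 5 of 8 sites missing, among them the strongest of the 8, at chr7:18999798-19000299 (14.1 and 12.7), 116825 bp from its start site. The E-protein genes TCF4 and TCF12 had strongest missing sites of 18.3 and 18.7 in WT replicate 1, while 23 of 38 and 5 of 8 of their sites were kept. ALX4 lost none of 14 sites and ID1, which encodes an inhibitor of bHLH dimers, none of 6. ID4, of the same family, lacked 7 of 13. The shares missing were 23.3% of 163 sites by craniosynostosis genes and 25.2% of 412 by BMP, FGF and WNT signalling genes. Extracellular matrix and adhesion genes lacked 25.7% of 249 and neuronal and glial fate genes 23.5% of 51. All 4 intervals include the 28.1% of all sites.

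H3K27ac, a histone mark of active enhancers and promoters, was counted by the authors over ATAC-seq peaks, with 2 libraries per line and time. Scaling rests on the peaks themselves, so a change of all peaks together would not be seen. Before degradation the lines differed at few peaks: edgeR's quasi-likelihood test called 116 of 148460 tested peaks higher in TWIST1FV (0.0781% of those tested) and 189 lower (0.127%), together 305 (0.205%), at an adjusted p under 0.05. At the 8609 tested peaks of missing sites, 1 was called higher and 35 lower (0.407%, interval 0.292 to 0.565). At the 23407 peaks of kept sites, 64 were higher and 91 lower (0.389%). The total of 305 calls fell to 78 without TWIST1FV replicate 1, 116 without TWIST1FV replicate 2, 38 without WT replicate 1 and 74 without WT replicate 2.

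The median log2 fold change, TWIST1FV against WT, was -0.11 at missing, -0.05 at 1-list and 0.02 at kept sites, beside -0.00071 over all tested peaks. By WT binding strength, at missing sites the median was -0.05, -0.14, -0.24 and -0.39 from group 1 to group 4, and at kept sites 0.19, 0.13, 0.07 and -0.01. The median level at missing sites was 1.37 and 1.399 log2 CPM (counts scaled to library size) in TWIST1FV and 1.56 and 1.56 in WT, groups that do not overlap. At kept sites it was 3.34 and 3.22 against 3.26 and 3.23, and these do overlap. The peak at the missing site near DIO2 had 8 and 8 counts in TWIST1FV and 44 and 26 in WT, a log2 fold change of -2.13 (SE 0.51) that missed the threshold (edgeR adjusted p = 0.081). The peak near CTAGE1 had 12 and 12 counts against 22 and 8, with an adjusted p in edgeR of 0.97.

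The same classes were then compared after 3 h of dTAGV-1, the compound that degrades the tagged TWIST1. In TWIST1FV at 3 h against 0 h, 204 of 8609 peaks at missing sites were called lower (2.37%) and 6670 of 23407 at kept sites (28.5%), beside 5.27% of all tested peaks (edgeR). Called higher were 125 and 242 peaks, beside 1.52% of all tested, and 6.79% of all were called either way. The difference in shares was -26.1 percentage points, and -7.12 as the mean over groups 1 to 4 of like WT binding. The medians were nearer than the calls: at groups 2, 3 and 4 they were -0.32, -0.50 and -0.56 at missing sites and -0.11, -0.38 and -0.67 at kept sites. Peaks at missing sites carried fewer counts, with a median level of 1.11 log2 CPM in group 3 against 2.65 at kept sites, and the part of depth in the number of calls was not tested. In WT over the same 3 h the median was -0.01 at missing sites and 0 peaks were called by edgeR or DESeq2, with 4128 and 2413 at an unadjusted p under 0.05. By the interaction term, the change over 3 h differed between the lines at 34 missing-site and 3373 kept-site peaks in the lower direction (2.48% of all tested) and at 29 and 33 in the higher (0.305%), with 2.78% of all called either way (edgeR). TWIST1FV at 3 h shares its 0 h libraries with the comparison of the lines, so the values are given side by side only.

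**Figure D5:**
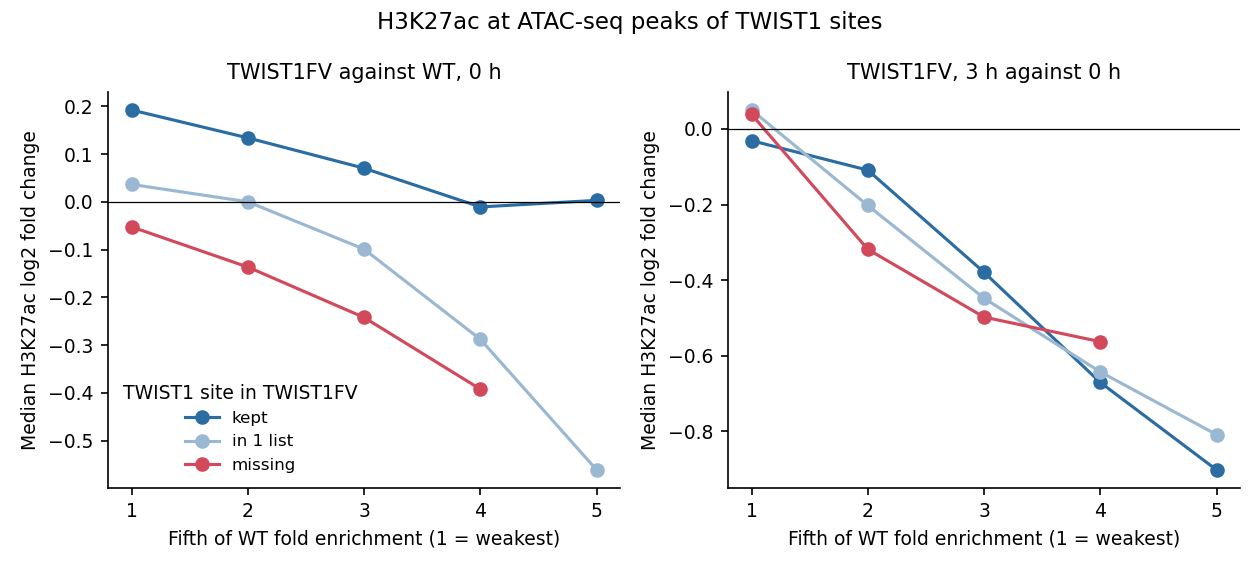
Median H3K27ac log2 fold change (vertical axes) at ATAC-seq peaks of kept, 1-list and missing sites, in 5 equal groups by WT fold enrichment (horizontal axes); points for under 20 peaks are not drawn. At left, TWIST1FV against WT at 0 h, missing sites run from -0.05 to -0.39; at right, TWIST1FV at 3 h against 0 h, all 3 classes fall with WT binding.

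Peaks at missing sites were 5.80% of all tested and 18.5% of those called lower in TWIST1FV (35 of 189). The rate of lower calls was alike at both classes: 0.407% of missing-site and 0.389% of kept-site peaks, beside 0.127% of all tested. Of the 10 peaks named for the size of their change, 5 per direction, 1 lay at a missing site: chr1:2855593-2856560, 54384 bp from TTC34, with 2 and 4 counts in TWIST1FV against 142 and 94 in WT (log2 fold change -5.27, SE 0.52, edgeR adjusted p = 1.93e-06). The WT fold enrichment of TWIST1 there was 9.17 and 9.01. Promoters of LRRC34 (2 and 16 counts against 106 and 153) and ZNF880 (0 and 2 against 32 and 25) were lower in TWIST1FV with no TWIST1 peak of both WT replicates there. The peak near CRTAC1 had 0 and 0 counts in TWIST1FV and 8 and 10 in WT, but 16 and 14 against 8 and 10 at 3 h. With each zero set to a floor of 3 counts, the TWIST1FV level was at least 3.11-fold lower, and this bound drops to 1.56-fold should each fragment have been counted once per mate. Peaks near RCSD1 (70 and 52 counts against 6 and 8), ONECUT1, FKBP1C, NDUFA10 and OLFML1 were higher, by 2.57 to 3.08 on the log2 scale. At 3 h the OLFML1 peak had 14 and 21 counts in TWIST1FV and 14 and 18 in WT, groups that overlap. The other decreases named at missing sites were in introns of FHIT (2 and 4 counts against 30 and 22) and CEP128 (10 and 4 against 60 and 48). The only increase was at a start site of ROBO1, an axon guidance receptor gene (4.34 and 4.47 log2 CPM against 3.18 and 3.46, log2 fold change 1.104, SE 0.23, edgeR adjusted p = 0.030).

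H3K27ac at the start sites of all 9 cranial neural crest markers, among them TFAP2A, SOX9 and TWIST1, was tested and 0 differed (adjusted p in edgeR between 0.74 and 1.00). Their median level was 6.06 to 6.26 log2 CPM in the 4 libraries. Of 6 pluripotency markers, POU5F1, NANOG and ESRG had no peak at their start sites. The others had signal in both lines: LIN28A at 6.82 to 7.08, L1TD1 at 4.83 to 5.32 and DPPA4 at 2.39 to 3.22 log2 CPM. Of 6 neural progenitor markers 3 passed the filter, with medians of -0.87 to 0.79. H3K27ac at the TWIST1 start site was 4.96 and 5.45 log2 CPM in TWIST1FV and 5.38 and 5.56 in WT (log2 fold change -0.24, SE 0.19, edgeR adjusted p = 0.87), and it does not measure the amount of TWIST1 protein. The 12 libraries of the fit held 7080398 to 9173063 counts.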

How the data were processed

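The members and lists were chosen with earlier results of these data known. Per the submitters' processing notes, Bowtie2 2.4.1, SAMtools 1.10, MACS2 2.2.7.1 and deepTools 3.5.0 were used. Per the labels, reads were aligned to hg38 and mm39 together and the files are in hg38. The authors deposited 1 peak list per sample, not pooled, with a linear fold enrichment (a ratio) and -log10 p and q per peak; the lists used here have q under 0.05. The authors deposited H3K27ac counts per ATAC-seq peak, whole and not normalised; most counts of 20 or more are even, as when both mates are counted.

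Intervals repeated for several summits were merged, keeping the highest -log10 p. Overlap meant 1 bp or more, checked against bedtools 2.31.1. Sites were placed with GENCODE 44 and sequences read from hg38; all peak ends lay within its chromosomes. Intervals are Wilson 95% and cover counting over sites only, which are not replicates. Group 1 to 5 and the shortened WT and ALX1FV ALX4- lists were compared as descriptions, with no test; the shortened lists, the looser motif and the GC matching were added after seeing the data. H3K27ac was fitted with edgeR 4.0.16 (TMM, filterByExpr, quasi-likelihood, 12 libraries, Benjamini-Hochberg), tested on simulated data. An ATAC-seq peak took the class kept before 1-list before missing. Named sites were the 10 missing and 5 kept with the highest WT replicate 1 fold among sites in all 5 WT lists, and the 5 strongest found in TWIST1FV alone. Named H3K27ac peaks were the 5 largest changes per direction, and 3 at missing sites, among called peaks above the median level whose lines did not overlap. The labels do not say whether replicate numbers pair the libraries, so the main fit had no block. Deviations of libraries with the same number correlated at 0.029 between the lines at 0 h and 0.022 to 0.109 over all pairs of groups. Some of the named missing sites are not reported here.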

Additional observations from a re-analysis of the deposited data

Results flagged for a closer look

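The change in H3K27ac from 0 to 3 h of dTAGV-1 differed between TWIST1FV and WT at 4131 of 148460 peaks by the interaction term of the edgeR fit, 453 higher (0.305% of those tested) and 3678 lower (2.48%). At peaks of missing sites 29 were higher and 34 lower, at peaks of kept sites 33 and 3373.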

How the results depend on the processing

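The share of WT sites missing was 28.1%, 7.94% with lists of equal length and 32.8% to 45.6% with 1 list left out. The AP2a difference of -14.8 percentage points stayed negative: -7.39 with 50% reciprocal overlap, -18.1 at -log10 q of 5 or more, -22.9 at equal length, -16.6 and -18.2 with the Novus or Cell Signaling list alone, -20.1 over 5 groups of like enrichment, -17.1 over the 4 lower ones, -9.83 with GC matched, and -14.9 to -11.1 with 1 list left out. The promoter difference of 4.61 was 1.61 at the stricter q, -4.73 at equal length, -6.91 and -6.09 over the 5 and 4 groups, 0.084 with GC matched and 3.69 to 6.85 with 1 list left out. The composite motif difference of -0.42 was -0.43 with reciprocal overlap, -0.17 at the stricter q, 1.22 at equal length, -0.43 on replicate 2 intervals, -0.65 within 50 bp and -0.88 with the looser motif. It was 3.96 and 1.91 over the 5 and 4 groups, 1.32 with GC matched and -0.76 to -0.26 with 1 list left out. Between whole lists, equal length turned the promoter difference to 2.32 and the composite difference from 0.088 to -0.65; leaving out 1 list gave the latter -0.027 (without TWIST1FV replicate 2) to 0.202. The 305 H3K27ac calls became 1042 (475 higher, 567 lower) with a replicate block, though the numbers are not known to pair the libraries, and 38 to 116 with 1 library left out. DESeq2 called 434. The H3K27ac difference at 3 h of -26.1 was -23.8 by library size, -25.0 without a filter, -31.2 with the replicate block, -7.12 over the 4 lower groups and -22.3 to -17.3 with 1 library left out. A lone library was assumed to vary like the others. The named H3K27ac peaks kept their direction, but 42 of 108 alternative values lost the call. The 108 values leave out named peaks to which DESeq2 gave no adjusted p. It gave one only to those near RCSD1, FKBP1C, TTC34, LRRC34 and ROBO1. Also left out is the CRTAC1 peak in the fit of the 4 libraries at 0 h alone, where it was not tested. The cause of the changes between settings was not tested. Unknown depth of the lists limits all shares.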

Other observations

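RS4;11, a lymphoblast line profiled with the same TWIST1 antibody, shared 20.9% of kept and 18.7% of missing sites. In group 3 its peaks covered 24.0% of kept and 8.66% of missing sites. The summit of kept sites lay a median of 15 bp from the summit in WT replicate 2, and 18 and 19 bp from those in the TWIST1FV lists.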
